A study of Mus musculus with 6 samples.

Results

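The sequences described here are small RNAs that the deposited table assigns to a named miRNA hairpin but not to one of the hairpin's annotated mature miRNAs. They were chosen by name: the hairpin name is written with a lower-case mir and ends in -p5 or -p3, and 29 sequences of hairpin families treated separately were left out. This gave 45 features, each a distinct pair of name and sequence, of 756 in the whole table, made of 41 distinct sequences on 38 hairpins. The 6 small RNA libraries carry the label Mes23.5, a cell line with dopaminergic traits, and all 6 are marked as exposed to LPS, a bacterial endotoxin, for 24 h. In 3 of them (SIX2_EV) the cells had received extracellular vesicles of microglia that overexpress SIX2, a homeobox transcription factor, and in the other 3 (control_EV) vesicles of control microglia. BV2, a mouse microglia line, stands in the growth protocol instead of Mes23.5. Separate cultures are not stated for the 3 libraries of a group, so the p-values rest on a spread that could be technical only.

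A miRNA hairpin is cut by Drosha and Dicer into a duplex, and one or both arms can be loaded into Argonaute as a mature miRNA that pairs with target mRNAs through its seed. Databases list one or both arms of a hairpin as mature. A read that falls elsewhere on a hairpin may be the unlisted arm, a shifted cut of the listed one, or a fragment of another RNA with the same letters, such as a tRNA, a small nucleolar RNA or a repeat transcript. Small RNA sequencing reads the letters alone and does not tell these apart.

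The 9 sequences below are the ones that the values turn on, with those bases in capitals that belong to the annotated mature miRNA of the hairpin named. They are given in DNA letters as deposited, 5′ to 3′.
mmu-mir-5099-p3: ATCGATGTGGTGCTCCggagt
mmu-mir-1934-p3: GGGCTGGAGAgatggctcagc
mmu-mir-690-p3: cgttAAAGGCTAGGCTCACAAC
mmu-mir-5110-p5: AGAGGGTGGTGGAATTtc
mmu-mir-1983-p5: gttagcgcgcggtacttata
mmu-mir-3069-p3: gacggagcggtttctgTTGGAC
eca-mir-8986a-p5: CTCGAAGAAtaactgctgacc
efu-mir-9277-p3: attggggtttccccgcgcaGGT
efu-mir-9277-p5: cgagtggttaaggcgatgga
The capitals show that the name of an arm sequence does not always mean the other arm. In mir-5099-p3 and mir-5110-p5, 16 bases were those of the annotated mature, and in mir-690-p3 18 bases were. Only mir-1983-p5 and efu-mir-9277-p5 among the 9 held none.

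Over all 45 sequences, 25 held 1 or more bases of the annotated mature of their hairpin and 19 held 8 or more. The name of a non-annotated arm therefore fitted the 20 sequences without any such base, whereas the 19 overlapped the listed miRNA on the hairpin. Such an overlap is one of letters and does not show where a read came from: among the 19 are eca-mir-8986a-p5 and mir-1934-p3, whose letters also stand in a small nucleolar RNA and in many genes. Reads followed the same division. The 19 sequences with 8 or more annotated bases took 0.438, 0.531 and 1.06% of deposited reads in SIX2_EV libraries 1 to 3, against 1.26, 1.43 and 1.21% in control_EV. The other 26 took 0.0306, 0.00860 and 0.549% in SIX2_EV and 0.0699, 0.113 and 1.16% in control_EV. In the first and second library of both groups nearly all reads of arm sequences thus belonged to these 19, and in the third library of each group the rest had a far larger share.

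Most of the 45 sequences differed from the hairpin they were assigned to. A single substitution was carried by 34 of 45 (75.6%), against 83 of the 515 features with a mature miRNA name (16.1%). In mir-5099-p3 the change was T17G, in mir-690-p3 T1C, in mir-1934-p3 T8A, in efu-mir-9277-p3 C9T and in mir-5110-p5 G18C, counted from 1 at the 5′ end of the sequence with the base of the reference hairpin first. The substitution stood at the first base in 2 sequences and at the last in 6, and inside the sequence in the other 26. For 25 of 45 sequences the mouse hairpin listed in their row did not contain them letter for letter. Names came from 8 species: 24 were mouse (mmu), 6 human (hsa), 5 horse (eca), 3 bat (efu), 3 orangutan (ppy), 2 rat (rno) and 1 each Tasmanian devil (sha) and pig (ssc).

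The sequences were also short and rich in G and C. Of the 45, 22 (48.9%) were 18 or 19 bases long, against 41 of 515 (7.96%) features with mature names. The median length was 20 bases against 22, and the median GC content 60.0% against 47.6%. The authors' score for the fold of the hairpin in each row, a free energy that is lower for a more stable fold, ran from -109.4 to -3.9 with a median of -35.6, beside -38.95 for rows with mature names. These values describe the 2 sets and were not tested.

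**Figure D1:**
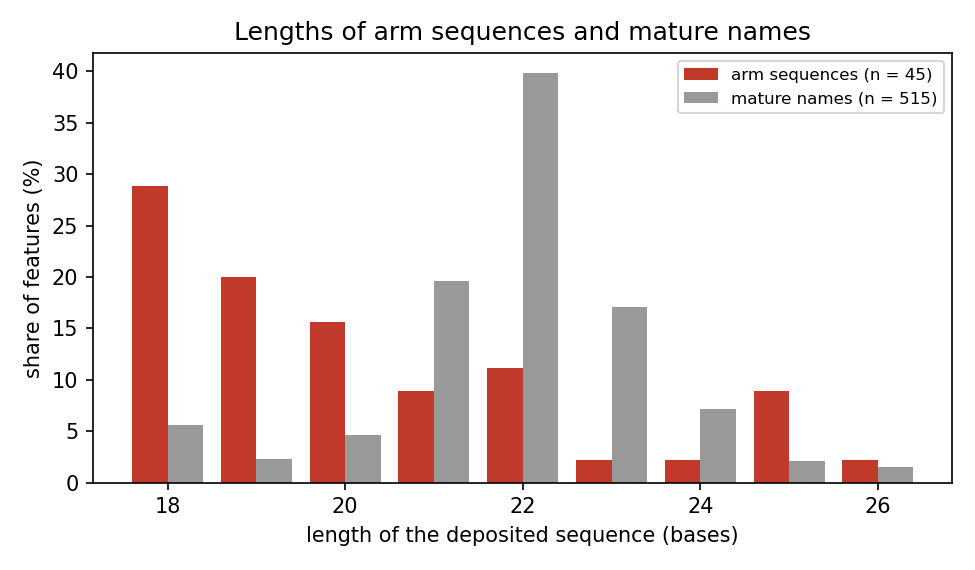
Share of features (%) at each length in bases, for the 45 arm sequences and for the 515 features with mature miRNA names. The arm sequences were most frequent at 18 bases (28.9%), and the mature names at 22 bases (39.8%).

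Exact matching to mouse GENCODE transcripts on the same strand sorted the sequences into 4 kinds, a sorting chosen after the values were seen. No transcript held 22 of the 45, mir-5099-p3 and mir-5110-p5 among them. A further 11 lay in 10 or more genes each and were counted there first, although 4 of them (mir-1187-p5, mir-1946a-p3, mir-709-p3 and mir-6413-p3) also matched small structural RNA entries. Of the rest, 6 lay in structural RNA, which makes 10 with such a match in all, and 6 in fewer than 10 genes without being in a structural RNA. No tRNA table, genome sequence or repeat annotation was used. A sequence in no transcript may therefore still be a fragment of a tRNA or of another RNA, and the kinds tell only what was matched. Per the labels' protocols, reads of tRNA, small nucleolar RNA and repeats had been removed before the table was made.

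Both efu-mir-9277 sequences, named after a bat hairpin, lay in the entry n-TStga1, a mouse serine tRNA gene. The -p5 sequence took bases 16 to 35 of its 109, and the -p3 sequence bases 46 to 67. The -p5 sequence was also found in n-TSaga9, another serine tRNA gene, from base 12 to base 31. eca-mir-8986a-p5 stood at bases 55 to 75 of the 132 bases of Snora3, an H/ACA small nucleolar RNA of the kind that guides pseudouridylation. mir-3069-p3 stood at bases 235 to 256 of the 275 bases of Scarna13, a small Cajal body RNA. In RefSeq (GRCm38.p6) the hairpin Mir3069 itself, chromosome 12 from 105031077 to 105031141, overlaps Scarna13 and its lncRNA host Snhg10. The 2 ppy-mir-1268-p5 sequences began at base 19 of the 300 bases of Rn7s1 and Rn7s2, the 7SL RNA of the signal recognition particle. mir-1983-p5 was in no structural entry by this match, yet its hairpin Mir1983 (chromosome 13, 21896918 to 21897049) overlaps the isoleucine tRNA gene n-TItat14 in the same annotation.

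The sequences held by many genes were mostly on mouse-named hairpins. mir-1187-p5, a run of the dinucleotide AC, occurred in 2100 genes, the sequence shared by mir-1954-p3 and mir-5098-p3 in 535, mir-709-p3 in 517, mir-1946a-p3 in 227, mir-6413-p3 in 214 and mir-1934-p3 in 183. Mouse B1 and B2 elements, short interspersed repeats, are known for letters much like those of mir-709-p3, mir-1946a-p3 and mir-1934-p3. No repeat annotation was used here, and whether the reads stem from repeats was not tested.

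Pairs of these sequences joined into longer runs. mir-1934-p3 and mir-690-p3 come from hairpins on different chromosomes (Mir1934 on chromosome 11, 69663043 to 69663125, and Mir690 on chromosome 16, 28599935 to 28600043, overlapping Fgf12, a fibroblast growth factor gene). In all 8 GENCODE miRNA entries that hold both sequences, the second began at the base after the end of the first. The run is shown with mir-690-p3 in capitals, and below it the run that mir-709-p3 and mir-1946a-p3 make, with the 9 bases they share in capitals.
mir-1934-p3 then mir-690-p3: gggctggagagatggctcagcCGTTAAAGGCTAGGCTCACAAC
mir-709-p3 joined to mir-1946a-p3: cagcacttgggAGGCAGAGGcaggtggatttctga
The reads of each pair may therefore come from the same longer transcripts, which was not tested. A further 4 sequences stood under 2 of the 45 names each, with equal values under both: mir-1931-p3 with mir-5104b-p3, mir-1954-p3 with mir-5098-p3, and the -p5 and -p3 names of hsa-mir-1469 and of eca-mir-8969.

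mir-1934-p3 also overlapped annotated miRNAs outside the 45. It holds the whole of miR-3473b and 1 base more, as the capitals show.
mir-1934-p3: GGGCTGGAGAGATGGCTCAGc
mmu-miR-3473b: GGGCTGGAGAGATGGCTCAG
The same sequence as mir-1934-p3 is listed as mir-3473f-p3 too, with equal values in all 6 libraries that are in part not whole, so the reads under each name are a share of those of the sequence. miR-3473b itself had 18, 20 and 229 reads in SIX2_EV against 163, 187 and 1044 in control_EV. In all, 7 of the 45 shared a run of 14 or more bases with a feature that is not among them, including efu-mir-9226-p5 with miR-9226 and hsa-mir-4454-p3 with miR-4454. The seed, bases 2 to 8, of 7 of the 45 was that of a mouse mature miRNA in RefSeq, whose seeds make up 8.53% of all possible seeds. The 7 count the sequence of eca-mir-8969-p5 and -p3, and that of mir-1931-p3 and mir-5104b-p3, under both names. They also include mir-5110-p5 and mir-1934-p3, which hold annotated bases, so these values do not measure an excess of seeds.

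Deposited reads per library ran from 179621 to 421279. In both groups library 3 differed from libraries 1 and 2: it listed 419 features in SIX2_EV against 276 in each of the others, and 680 in control_EV against 439 in the first. As a check of the labelled cell, miR-124-3p, the defining miRNA of neurons, was not listed, while 4 of the 5 neuronal markers and 6 of the 6 myeloid markers were. Summed neuronal markers ranged from 2039 to 2684 CPM (counts scaled to library size) in SIX2_EV and from 1853 to 3134 in control_EV, and summed myeloid markers from 30640 to 32360 and from 24640 to 47150. The neuronal sum was mostly miR-7a-5p (1558 to 2866 CPM over the 6 libraries), and the myeloid sum mostly miR-146a-5p (18680 to 41380 CPM). miR-9-5p was listed in control_EV library 1 alone, and miR-218-5p in control_EV library 3 alone. miR-223-3p was listed at 0 in SIX2_EV libraries 1 and 2. All 3 red blood cell markers were listed too, with sums from 13780 to 21090 CPM in SIX2_EV and from 8616 to 30450 CPM in control_EV. Whether the marker levels bear on any result was not tested. CPM is on the TMM scale, which sets the library scale from the bulk of the features. Values under about 5 reads are nearly missing from the table, so a 0 is given as listed at 0, without an upper limit.

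Together the 45 sequences took 0.469, 0.539 and 1.61% of deposited reads in SIX2_EV (mean 0.871 ± 0.637%, SD, n = 3), against 1.33, 1.55 and 2.38% in control_EV (1.75 ± 0.554%, n = 3). The Wilson 95% intervals, which cover counting error only, ran from 0.438 to 0.501% for SIX2_EV library 1 and from 2.33 to 2.42% for control_EV library 3. The groups overlapped, because the third SIX2_EV library lay above the first and second control_EV libraries. Without the third libraries, both SIX2_EV shares lay below both control_EV shares.

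Much of this difference lay in mir-5099-p3. With it left out, the others took 0.226, 0.220 and 1.29% in SIX2_EV and 0.415, 0.492 and 2.20% in control_EV. Sequences found in no transcript, the kind that holds mir-5099-p3, took 0.262, 0.337 and 0.442% in SIX2_EV and 1.01, 1.12 and 0.651% in control_EV. On this scale the groups did not overlap, but the kinds were sorted after the values were seen. How many of all features do not overlap on this scale was not counted. Of the reads of this kind, mir-5099-p3 made up 437 of 470, 742 of 785 and 589 of 815 in SIX2_EV. In control_EV it made up 2344 of 2601, 2666 of 2839 and 726 of 2741. Sequences found in many genes took 0.123, 0.113 and 0.625% in SIX2_EV and 0.190, 0.268 and 0.865% in control_EV. Sequences in structural RNA took 0.0429, 0.0305 and 0.488% in SIX2_EV and 0.0889, 0.125 and 0.681% in control_EV. In the last 2 kinds the third library of each group was well above the other 2, and the group ranges overlapped. A share also depends on what else the library holds. Hairpins suspected to be fragments of other RNA, none of them among the 45, took 80.7, 85.4 and 50.5% of reads in SIX2_EV but 59.9, 36.5 and 13.8% in control_EV. When their reads were left out of the denominator, the mean share was 3.12% in SIX2_EV and 2.83% in control_EV, and the order of the groups turned.

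**Figure D2:**
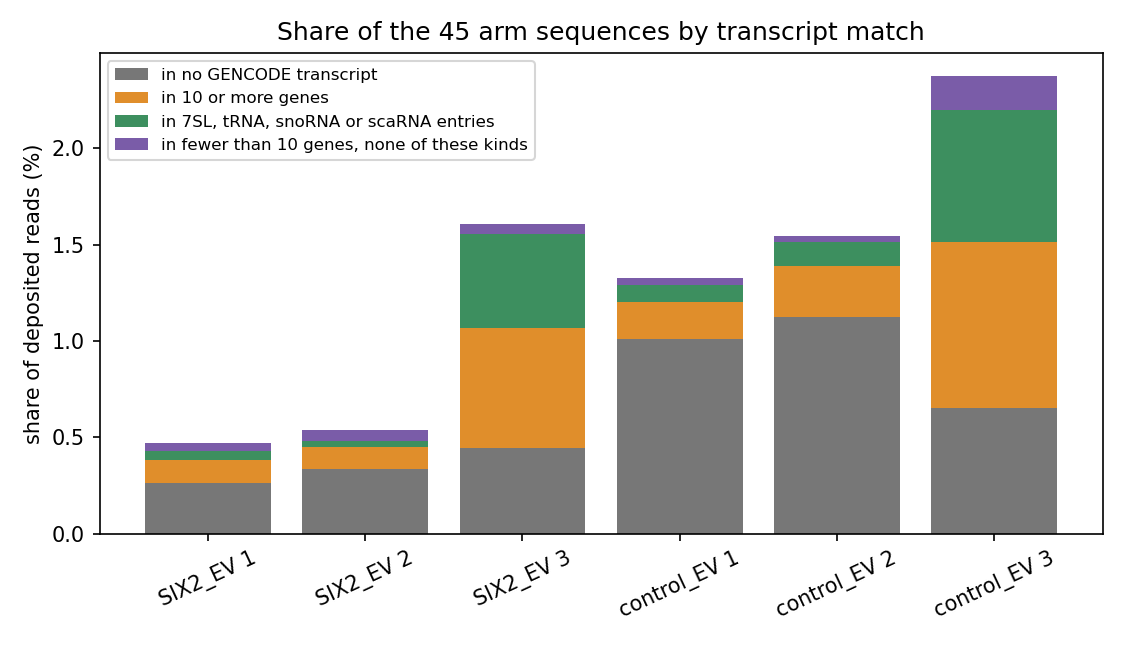
Share of deposited reads (%) of the 45 arm sequences in each library, stacked by where the sequence occurs among mouse GENCODE transcripts. Bars rise to 1.61% in SIX2_EV library 3 and 2.38% in control_EV library 3, where the parts in many genes and in structural RNA are largest.

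Few of the sequences were seen throughout. Of the 45, 6 were listed in all 6 libraries and 12 in 1 library. In SIX2_EV, 14, 11 and 26 were listed, and in control_EV 23, 25 and 36. The whole table showed the same order, with 276, 276 and 419 features listed in SIX2_EV and 439, 451 and 680 in control_EV. Sequences listed in control_EV only numbered 15, of which 7 were in the third library alone, the one with most reads. The highest value among these 15 was that of mir-709-p3, with 5, 0 and 222 reads. Listed in SIX2_EV only were 3 sequences, each in 1 library: mir-7010-p5 with 13 reads, ppy-mir-510-p5 with 5 and hsa-mir-4454-p3 with 3. Features listed in a single group were not counted over the whole table, so the 15 and the 3 show no trait of these sequences. Of 27 listed in both groups, 22 (81.5%) had their highest share of reads in the third library of both groups, against 235 of 327 (71.9%) features with mature names.

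Individual sequences were named by abundance, by the size of their p, by presence in all libraries and, for the most abundant of those with an annotated mature in the table, by that mature, which gave 14. mir-5099-p3, the most abundant, had 437, 742 and 589 reads in SIX2_EV against 2344, 2666 and 726 in control_EV. By reads, without regard to depth, the first and second control_EV libraries were high and the third lay within the range of SIX2_EV. On the TMM scale the third control_EV library, at 644 CPM, lay below all SIX2_EV libraries (4125, 10309 and 2657 CPM). The mean level of mir-5099-p3 on this scale was 5697 ± 4061 CPM (SD, n = 3) in SIX2_EV and 5257 ± 4104 CPM in control_EV. This gave 0.12 ± 0.94 (SE) as the log2 fold change of SIX2_EV over control_EV. The adjusted p was 0.983 by edgeR's quasi-likelihood test with Benjamini-Hochberg adjustment over 319 features. Scaled by total counts instead, the fold change was -1.28, with an adjusted p of 0.36. The same change of scale moved the median of all tested features from -0.30 to -1.52, and with it the sign for this sequence.

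mir-1934-p3 had 86, 97 and 874 reads in SIX2_EV against 324, 454 and 1627 in control_EV. Within each group the third library was far above the other 2, and the groups overlapped. Its level of 2034 ± 1675 CPM in SIX2_EV stood against 1249 ± 170 CPM in control_EV, and the log2 fold change was 0.71 ± 0.59 (adjusted p 0.670, edgeR).

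mir-690-p3, its neighbour in the GENCODE entries, had 129, 166 and 227 reads in SIX2_EV against 144, 189 and 1381 in control_EV. Read numbers were alike in the 2 groups apart from the third control_EV library. Its log2 fold change of 1.03 ± 0.51 carried the smallest p of the tested arm sequences (0.0888, adjusted 0.519, edgeR's quasi-likelihood test). Between the first and second libraries of the groups alone it was 1.99 with an unadjusted p of 0.00606, which did not pass adjustment (0.0871). By total counts over all 6 libraries it was -0.78.

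The 2 neighbours did not keep a fixed ratio. Reads of mir-1934-p3 over reads of mir-690-p3 came to 0.667, 0.584 and 3.85 in SIX2_EV and 2.25, 2.40 and 1.18 in control_EV. Since the same sequence is also listed as mir-3473f-p3, the ratio of its reads under both names was 1.33, 1.16 and 7.70 in SIX2_EV and 4.50, 4.80 and 2.36 in control_EV. By the single name mir-690-p3 was the higher in the first and second SIX2_EV libraries, and by both names the mir-1934-p3 sequence was the higher in all 6. The groups overlapped either way. A ratio within a library is free of the choice of scale, but it was chosen after the values were seen and is given without a test.

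**Figure D3:**
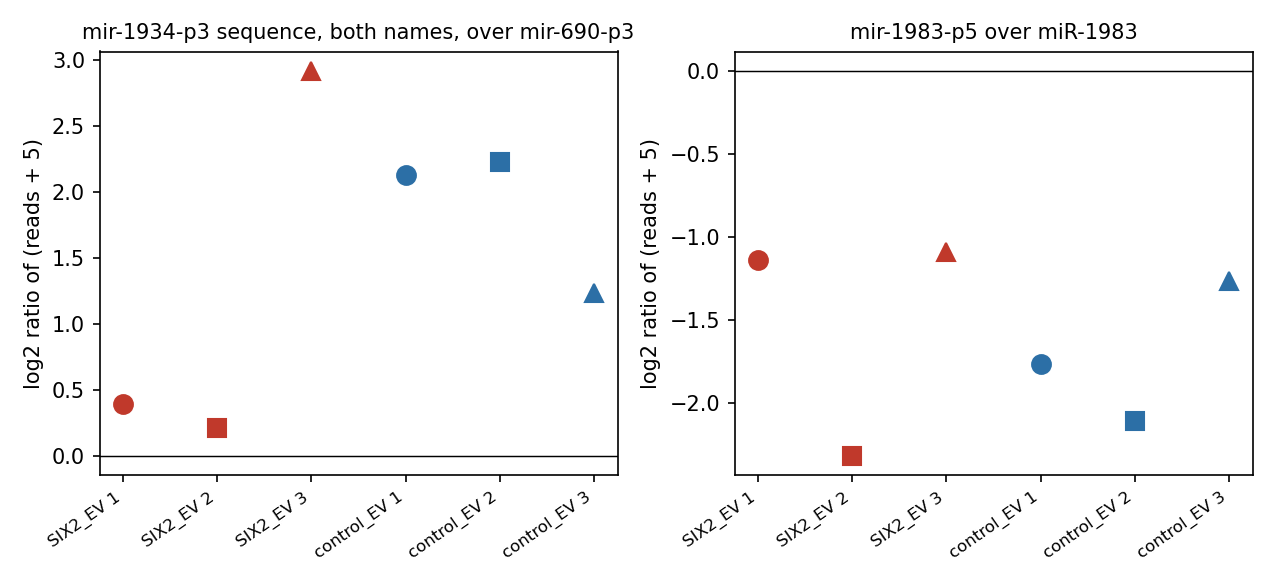
Log2 ratio per library, after adding 5 reads to each count, of the mir-1934-p3 sequence, summed over its 2 names, to mir-690-p3 (left) and of mir-1983-p5 to the annotated miR-1983 (right), with circles, squares and triangles for libraries 1, 2 and 3. On the left the 6 libraries span 0.21 to 2.92, and on the right all 6 lie below 0, from -2.32 to -1.09. In SIX2_EV libraries 1 and 2 mir-1983-p5 was listed at 0, so there the values on the right are set by the added reads and by miR-1983.

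mir-5110-p5 was the one sequence listed in all 6 libraries whose fold change was negative under both scales. It had 13, 17 and 128 reads in SIX2_EV against 208, 133 and 660 in control_EV. Every control_EV library had more reads than every SIX2_EV library, although the third library was the highest in both groups. This order takes no account of depth. Its closest values, 128 in SIX2_EV library 3 and 133 in control_EV library 2, came from 184208 and 253037 deposited reads. On the TMM scale the levels overlapped (312 ± 237 CPM in SIX2_EV, 557 ± 214 CPM in control_EV), and the log2 fold change was -0.82 ± 0.66 (adjusted p 0.669, edgeR).

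Among the sequences in structural RNA, efu-mir-9277-p3 had 19, 6 and 829 reads in SIX2_EV against 90, 169 and 2706 in control_EV. The third library held nearly all of its reads in both groups, and its log2 fold change was 0.35 ± 1.48 with an adjusted p of 0.943 by edgeR. Without the third library of both groups it was -1.28, with an adjusted p of 0.226. From the same tRNA gene, efu-mir-9277-p5 was listed at 0 in SIX2_EV and had 7, 0 and 72 reads in control_EV, too few libraries to be tested. The annotated miR-9277 was listed with 7 reads in SIX2_EV library 3 and at 0 in the other 5, so here the arm sequence was the abundant one.

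In control_EV the small nucleolar and Cajal body sequences had their fewest reads in the third library. In SIX2_EV this held for mir-3069-p3 but not for eca-mir-8986a-p5. eca-mir-8986a-p5 had 38, 51 and 48 reads in SIX2_EV against 108, 118 and 5 in control_EV, and its log2 fold change was 0.89 ± 1.30 (adjusted p 0.855, edgeR). mir-3069-p3 had 20, 14 and 5 reads in SIX2_EV against 24, 22 and 0 in control_EV, with 1.52 ± 1.75 (adjusted p 0.784, edgeR). Neither was raised in the third control_EV library, in contrast to the sequences matched to serine tRNA and 7SL RNA entries. The longer ppy-mir-1268-p5 sequence, from 7SL RNA, had 0, 0 and 11 reads in SIX2_EV against 0, 5 and 56 in control_EV, and the shorter one 0, 0 and 6 against 0, 2 and 28.

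mir-1983-p5 could be set beside the annotated miRNA of the same hairpin. The arm sequence had 0, 0 and 64 reads in SIX2_EV against 19, 20 and 673 in control_EV, and miR-1983 stood at 56.6, 278 and 641 CPM in SIX2_EV against 279, 256 and 1449 CPM in control_EV. Both were highest in the third library of each group, and the annotated miRNA had more reads than the arm sequence in all 6. The log2 ratio of arm to mature, with 5 reads added to each, was -1.14, -2.32 and -1.09 in SIX2_EV and -1.77, -2.11 and -1.27 in control_EV. In SIX2_EV libraries 1 and 2 the arm sequence was listed at 0, so those 2 ratios are set by the added reads and by miR-1983. The ratios therefore do not compare the groups. The fold change of mir-1983-p5 between groups was -1.25 ± 1.91 on the log2 scale (adjusted p 0.855, edgeR).

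An annotated mature of the same hairpin was in the table for 8 hairpins. Summed over them, the log2 ratio of arm sequences to mature miRNAs was 0.05, -2.49 and 2.37 in SIX2_EV and 0.06, 0.32 and 0.88 in control_EV. The spread within SIX2_EV exceeded the distance between the groups. In every library most of the summed arm reads were of efu-mir-9277, such as 829 of 923 in SIX2_EV library 3 and 2778 of 3500 in control_EV library 3. The summed ratio therefore does not stand for the other hairpins. In 6 of the 8 hairpins the mature was the more abundant by summed reads, and hsa-miR-4454 reached 191 reads in the third control_EV library, where hsa-mir-4454-p3 was listed at 0. rno-mir-1249-p5 went against this, with 0, 0 and 30 reads in SIX2_EV against 0, 15 and 35 in control_EV, while rno-miR-1249 was listed in the third control_EV library alone, with 14. Of 9 annotated mature features of these hairpins, 3 were tested and none was called by edgeR. sha-mir-142-p3, on the hairpin of a miRNA made in blood cells, had 9 and 5 reads in the first and second control_EV libraries and was listed at 0 elsewhere, and the miR-142 mature names had 227 to 5932.

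eca-mir-1543-p5, of which 21 bases are annotated mature, had 75, 136 and 0 reads in SIX2_EV against 76, 42 and 0 in control_EV. It was listed at 0 in library 3 of both groups. Its log2 fold change was 2.78 ± 2.29 with an adjusted p of 0.670 by edgeR, and 2.90 between the first and second libraries alone, with an adjusted p of 0.112. mir-1946a-p3 was read 5, 0 and 16 times in SIX2_EV and 0, 15 and 300 times in control_EV (log2 fold change -1.29 ± 1.86), and hsa-mir-636-p5 8, 0 and 18 times and 10, 5 and 18 times (1.33 ± 1.22). These low sequences varied between libraries of a group as much as between groups.

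**Figure D4:**
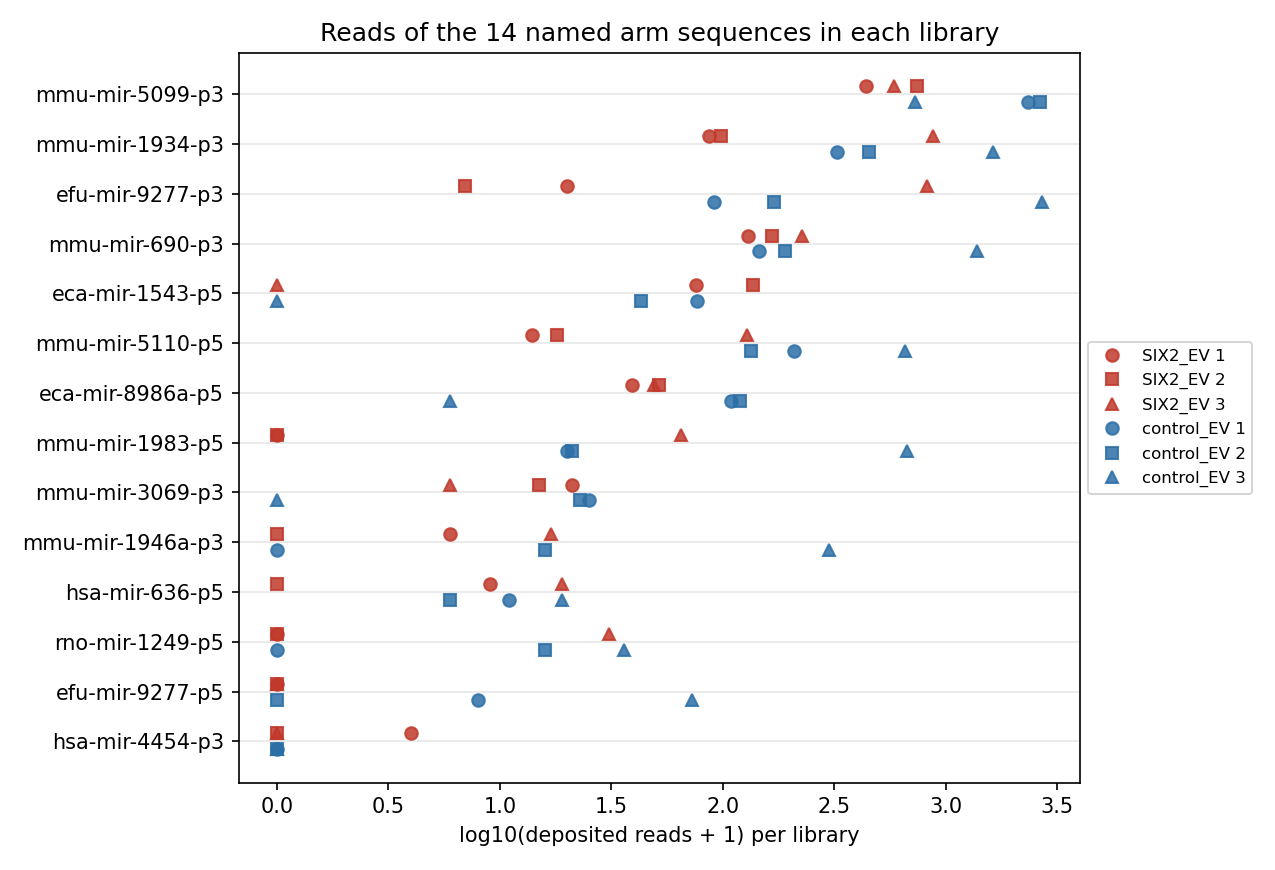
Deposited reads of the 14 named arm sequences in each library, as log10 of reads plus 1, with SIX2_EV in red and control_EV in blue and circles, squares and triangles for libraries 1, 2 and 3. For 8 of them, such as efu-mir-9277-p3, the library drawn as a triangle is the rightmost point in both colours, while eca-mir-1543-p5 is listed at 0 in library 3 of both groups.

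Of the 45 sequences, 12 passed the filter on low counts and were tested among 319 features. By edgeR's quasi-likelihood test none of the 12 was called at an adjusted p under 0.05, where 0% of all 319 were called. At an unadjusted p under 0.05 there were also 0 of the 12, against 12.2% of all tested. DESeq2 gave an adjusted p for 10 of the 12, all but efu-mir-9277-p3 and mir-1983-p5, and called 0 of them, against 6.41% of the 312 features with one. limma-voom called none of the 12. The groups overlapped in CPM for each of the 12, while 22.9% of all 319 tested features had groups that did not overlap. They also overlapped for the 33 not tested, but there a value listed at 0 in both groups counts as overlap. The other 33 sequences were too low to test, so nothing was measured on a difference for them.

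The median log2 fold change of the 12 was 0.80, with 9 positive, beside -0.30 over all 319, of which 35.4% were positive. Under total counts the medians were -0.53, with 4 positive, and -1.52. A change of scale moves all features nearly alike, so the distance between the 2 medians could hardly change with it. The direction of the members turned with the scale. mir-5099-p3, mir-1934-p3, efu-mir-9277-p3, mir-690-p3 and eca-mir-8986a-p5 were the 5 that changed sign. The medians of tested members and of all tested features were nearest to each other without control_EV library 2 (-0.04 and -0.27). They were furthest apart without control_EV library 3 (1.15 and -0.04). With no filter both were negative (-0.32 and -1.05). Between the first and second libraries alone, 9 were tested and 3 had an unadjusted p under 0.05, against 31.9% of all features, and none was called after adjustment. These 3 were mir-690-p3, eca-mir-1543-p5 and mir-1983-p5, the last listed at 0 in both SIX2_EV libraries.

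**Figure D5:**
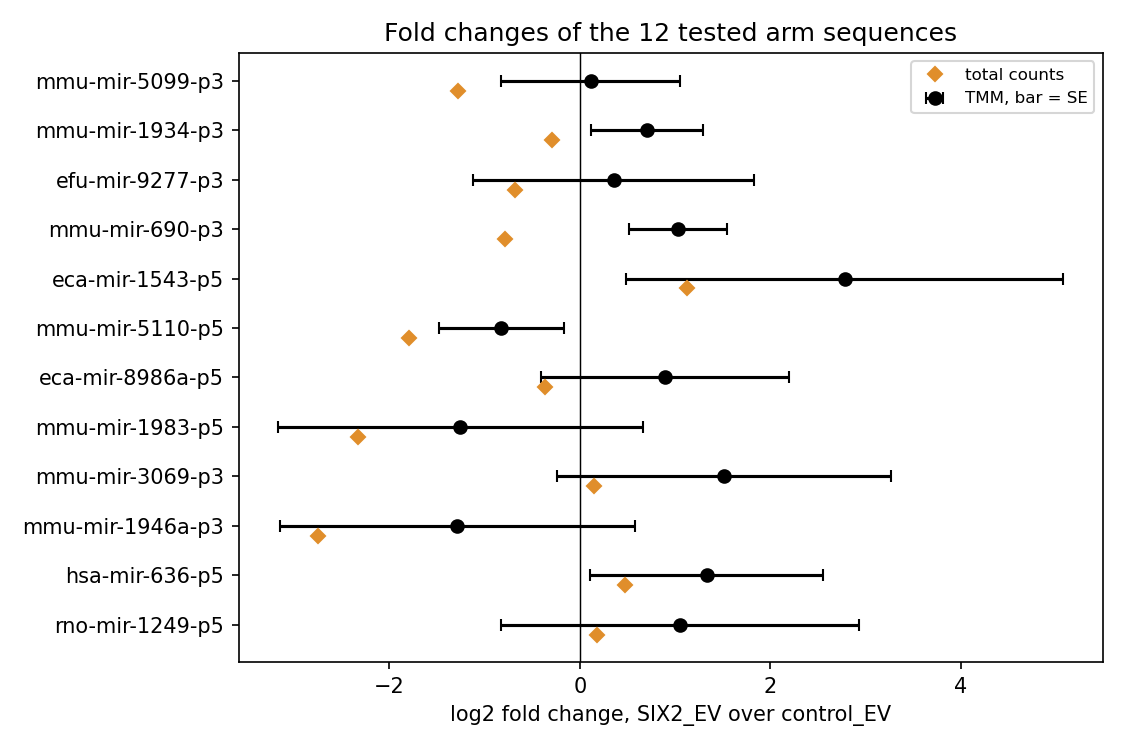
Log2 fold change of SIX2_EV over control_EV for the 12 tested arm sequences, with points and SE bars from edgeR on the TMM scale and diamonds for total-count scaling. The diamonds lie to the left of the points throughout, and 5 sequences lie on opposite sides of 0 under the 2 scales.

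The features most like mir-5099-p3 over the 6 libraries, by Pearson's r of log2(CPM + 1), were bta-mir-2904-3-p5 (0.971) and the predicted sequences PC-5p-3716_2889 (0.970) and PC-5p-31484_147 (0.956). bta-mir-2904-3-p5 had 1494, 2679 and 1419 reads in SIX2_EV against 5820, 4177 and 631 in control_EV. All 4 were lower in the third control_EV library than in the other control_EV libraries, by reads. The 6 points share their libraries and scale, so the r is a description.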

How the data were processed

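Total RNA from Trizol extraction went into TruSeq Small RNA libraries, and ACGT101-miR took out adapter dimers, low-complexity reads, common RNA families and repeats, per the labels' protocols. The deposited table gives estimated counts per sequence and locus in 6 libraries (raw, per the file headers), which need not be whole, and a score for each hairpin's fold (dG, deposited, per the file headers). The build of the deposited coordinates, which were left unused, is, in the sources used here, not given.

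The 823 rows were summed by name and sequence to 756 features and rounded. The 45 sequences and the marker lists were chosen with earlier results of these data known. Groups were compared with edgeR 4.0.16 (R 4.3.3, TMM, filterByExpr, quasi-likelihood test, Benjamini-Hochberg over 319 features, threshold 0.05). On simulated data the test recovered 92.0% of 50 features changed 4-fold and 100.0% of 63 changed 16-fold. Of the calls on simulated data, 5.22% were of unchanged features. The simulated spread was not compared with that of these libraries, so the rates do not give the power for the arm sequences. DESeq2 1.42.0 and limma 3.58.1 were alternatives. Named sequences were those past the threshold, the 10 most abundant, the 10 with the smallest p, those listed in all 6 libraries, and the 5 most abundant with an annotated mature in the table. Sequences were matched exactly to 141767 GENCODE transcripts, and 18 of 24 mouse-named hairpins matched RefSeq (GRCm38.p6). Deposited reads per library ran from 179621 to 421279. TMM factors were 0.590, 0.309 and 1.20 in SIX2_EV and 1.07, 1.59 and 2.67 in control_EV. By depth and factor together, 5 reads are between 4.44 CPM (control_EV library 3) and 69.5 CPM (SIX2_EV library 2).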

Additional observations from a re-analysis of the deposited data

How the results depend on the processing

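No arm sequence was called at an adjusted p of 0.05 under any of the settings run: other scalings, other filters, DESeq2, limma-voom, a replicate block, zeros set to 4 reads, sums by sequence, and libraries left out. Fold changes turned sign for single sequences. With total counts the log2 fold change was -1.28 for mir-5099-p3, -0.29 for mir-1934-p3, -0.68 for efu-mir-9277-p3, -0.78 for mir-690-p3 and -0.37 for eca-mir-8986a-p5, and with upper quartile scaling -0.06 for mir-5099-p3. Between the first and second libraries alone efu-mir-9277-p3 was -1.28. Leaving out 1 library gave -0.53 to 0.67 for mir-5099-p3, -0.08 to 1.05 for mir-1934-p3, -2.84 to 1.95 for efu-mir-9277-p3, -6.19 to 1.59 for rno-mir-1249-p5, -9.58 to 0.81 for mir-1983-p5 and -1.88 to 1.31 for mir-1946a-p3. The lowest values of mir-1934-p3, efu-mir-9277-p3, rno-mir-1249-p5 and mir-1983-p5 came without SIX2_EV library 3, and the highest of efu-mir-9277-p3, mir-1983-p5 and mir-1946a-p3 without control_EV library 3. For rno-mir-1249-p5 and mir-1983-p5 the lowest value is against SIX2_EV libraries listed at 0 and gives no size. mir-5099-p3 was negative without SIX2_EV library 2 (-0.53) or control_EV library 3 (-0.28), and efu-mir-9277-p3 also without control_EV library 1 (-0.06) or 2 (-0.04).

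The mean share of the 45 sequences was 3.12% in SIX2_EV and 2.83% in control_EV without the hairpins of suspected fragments in the denominator, and 5.41% and 3.43% over mature names on mouse hairpins, so the order of the groups turned with the denominator. Without mir-5099-p3 the control_EV share was 1.04%. Matching hairpins without species prefix, which adds abundant matures, gave a mean arm ratio of -3.08 in SIX2_EV and -2.75 in control_EV on the log2 scale. The cause of these shifts beyond their construction was not tested.

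No label states a pairing of the libraries. The deviations of same-numbered libraries from their group mean correlated at 0.19, 0.054 and 0.62, and those of differently numbered ones at -0.60 to 0.54. The highest value was that of the third libraries. Deviations within a group of 3 are tied to each other, so these values cannot decide whether the libraries are paired. With the replicate number as a block, 0 sequences were called and 1, eca-mir-1543-p5, had an unadjusted p under 0.05, efu-mir-9277-p3 was -0.74 and rno-mir-1249-p5 -0.10. At this depth 33 of the 45 did not pass the filter on low counts and were not tested.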
